A study of Mus musculus with 3 samples.

Results

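The Cilp Myoc cells were stromal cells of mouse inguinal fat in which at least 3 UMIs of Cilp and Myoc together were counted. A UMI (unique molecular identifier) stands for 1 captured RNA molecule. The cells were selected on these measured counts, and on at most 1 UMI of Icam1 and Fabp4 together, none of Clec11a, and at most 1 UMI of Krtdap, Dmkn, Sbsn and Bmp3 together. This gate held 1119 of the 34577 cells that had more than 500 detected genes and under 5% mitochondrial UMIs, and these 1119 cells are called members in what follows. They numbered 483 of 12984 cells in mouse 1, 185 of 6414 in mouse 2 and 451 of 15179 in mouse 3. The shares were 3.72% (95% exact Clopper-Pearson interval 3.4 to 4.06), 2.88% (2.49 to 3.32) and 2.97% (2.71 to 3.25), with a mean of 3.19% ± 0.459 (SD, n = 3 mice), and the intervals cover counting error only.

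The stromal vascular fraction (SVF), the cells left after fat tissue is digested and its floating adipocytes are removed, came from the subcutaneous inguinal depots of 3 male wild-type C57BL/6J mice, 8 weeks old and given no treatment. Sorting kept the cells that lacked CD31, found on endothelium, and CD45, found on leukocytes, and each mouse gave one 10x 3′ droplet library, so the series holds 1 condition and its comparisons lie between cells of the same animal. Member libraries had a median of 7250, 12224 and 6830 UMIs per cell in mice 1, 2 and 3, and their UMIs summed to 3444151, 2218060 and 3123204. Between 52 and 81 barcodes were shared by a pair of libraries, and none of them was a member in both libraries of the pair. Doublets were not removed.

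Cilp encodes cartilage intermediate layer protein, a secreted protein of cartilage and other connective tissues, and Myoc encodes myocilin, a secreted glycoprotein with an olfactomedin domain. Fibroblasts of a fat depot build the collagen and elastic fibres around lobules and vessels, and the depot also holds adipocyte stem cells (ASCs, marked by Dpp4 and Pi16), committed preadipocytes (PreAs, marked by Icam1 and Fabp4) and adipocyte regulatory cells (Aregs, marked by Clec11a and F3). The other listed markers of the Cilp Myoc cells encode secreted proteins. Mfap4 is a microfibril-associated glycoprotein, Ccn5 a matricellular CCN protein, Igfbp3 a binding protein for insulin-like growth factors, Dkk2 a modulator of Wnt signalling and Alkal2 a ligand of the receptor kinase ALK.

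RefSeq promoter windows were on hand for 5 of the 7 listed markers. The 100 bases before the annotated start are shown for Cilp and Myoc, which define the gate, and for Dkk2, the other listed marker whose window held a TATA box as spelled here. They lie, for Cilp, at chr9:65265080-65265179, for Myoc at chr1:162639050-162639149 and for Dkk2 at chr3:132085192-132085291, all on the plus strand of GRCm38.p6, with TATAAA and TATATAA, 2 spellings of the TATA box, in capitals.
Cilp: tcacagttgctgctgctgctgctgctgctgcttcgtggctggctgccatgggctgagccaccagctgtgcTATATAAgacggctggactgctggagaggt
Myoc: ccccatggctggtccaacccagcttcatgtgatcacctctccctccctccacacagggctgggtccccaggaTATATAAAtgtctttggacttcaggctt
Dkk2: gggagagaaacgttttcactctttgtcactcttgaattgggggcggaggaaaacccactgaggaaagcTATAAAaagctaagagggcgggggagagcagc
TATAAA (or TTTATA, its reverse) began at -26 in Myoc and at -32 in Dkk2, and TATATAA (or TTATATA) at -30 in Cilp and at -28 in Myoc, where it overlaps TATAAA. Neither spelling was in the 300-base windows of Igfbp3 and Alkal2. They occurred in 13.6% and 3.24% of 32851 promoter windows of that length, and GGAATG (or CATTCC), the core of the TEAD motif, occurred in 14.7% of them and in none of the 5.

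Most members carried Myoc without Cilp, and most also carried the ASC markers. Dpp4 and Pi16 together reached 3 UMIs in 1001 of the 1119 members (89.5%), in 85.9%, 87.6% and 94.0% of those of mice 1, 2 and 3. Myoc was at 0 in 112 members (10.0%), whereas Cilp was at 0 in 850 (76.0%), so that 269 members (24.0%) held a Cilp UMI and 157 (14.0%) held both. Across mice, 26.9%, 27.0% and 19.7% of members had Cilp. Cells with and without Cilp had similar depth, with a median of 7102.5, 12520 and 7065 UMIs against 7337, 12182 and 6815.5.

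The gate cut through a continuous range of counts. Members had a median of 10, 11 and 7 Cilp plus Myoc UMIs in mice 1, 2 and 3, with 517 of them (46.2%) at 10 or more and 151 (13.5%) at the threshold of 3. Just inside the gate, cells with 3 such UMIs had Mfap4 at 92.7, 0 and 34.1 CPM (UMIs of the gene per 1000000 summed UMIs of those cells in 1 mouse), and just outside, cells with 2 had 5.62, 0 and 4.87 and cells with 1 had 13.2, 12.7 and 12.9. Members with 4 to 9 had 51.4, 2.83 and 20.3 CPM and those with 10 or more 116, 170.2 and 98.8, so the level did not climb evenly with the count. Without the other conditions the threshold held 2102 cells, of which 508 exceeded the limit on Icam1 and Fabp4, 196 had Clec11a and 434 exceeded the limit on the Krtdap set, some of them on more than 1 count.

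**Figure D1:**
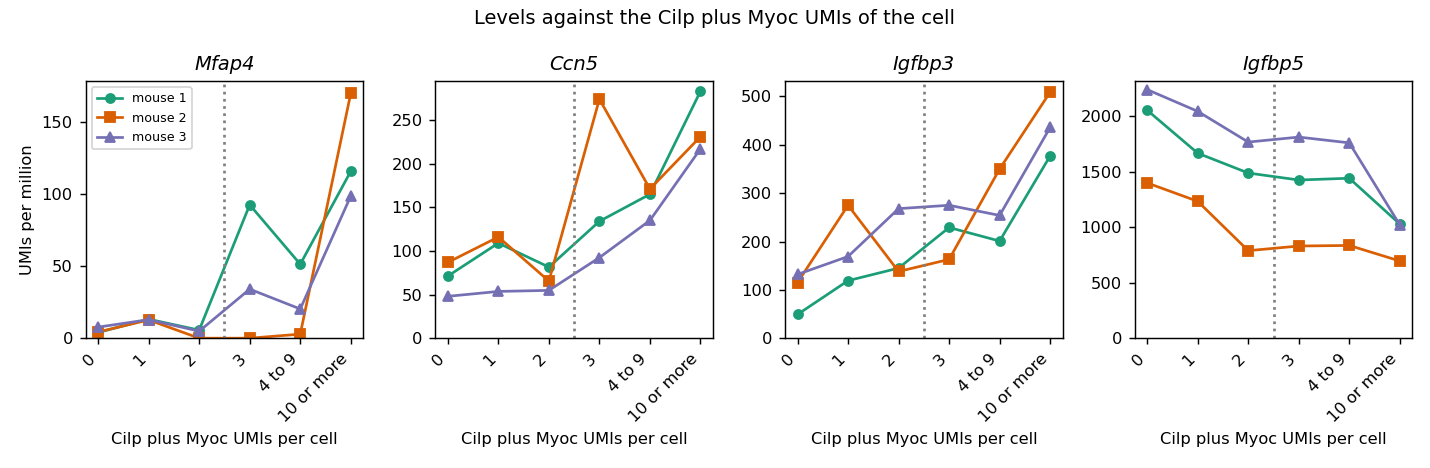
Levels of Mfap4, Ccn5, Igfbp3 and Igfbp5 (y axis, CPM) against the Cilp plus Myoc UMIs of the cell (x axis, bins of cells that met the other conditions of the gate), with a line for each mouse and a dotted line at the gate. Igfbp5 fell from 2055, 1399.8 and 2241 CPM in cells with no Cilp or Myoc to 1029, 696 and 1021 CPM in those with 10 or more, while Igfbp3 went from 49.1, 115 and 132 to 377, 509 and 436 CPM.

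The listed markers held unequally, and they are described with no test because they were listed for these cells. Mfap4 stood at 89.4, 101 and 53.8 CPM in the members of mice 1, 2 and 3, at 3, 2.79 and 3.55 in Dpp4 Pi16 cells (at least 3 UMIs of Dpp4 and Pi16, no Cilp or Myoc, at most 1 UMI of Icam1 and Fabp4) and at 4.47, 8.01 and 6.47 in Icam1 Fabp4 cells (at least 4 UMIs of Icam1 and Fabp4, at most 1 of Dpp4). These populations held 16882 and 5735 cells. No mouse's level in members overlapped the comparison levels, and the ratio of means was 26.1 and 12.9. Ccn5 was at 223, 216 and 161 CPM against 40.6, 46.4 and 29.7 and against 46.1, 83.7 and 56.2, likewise without overlap.

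Igfbp3 reached 296, 426 and 330.1 CPM in members, 36.6, 91.7 and 87.1 in Dpp4 Pi16 cells and 17.1, 52.7 and 46.8 in Icam1 Fabp4 cells. Dkk2 reached 251, 229 and 125 CPM against 72.3, 57.4 and 42.8 and against 56.3, 58.6 and 51.2. Both genes were above either comparison population in each mouse. Alkal2 was at 50.2, 101 and 53.5 CPM against 43.3, 65.8 and 34.6 in Dpp4 Pi16 cells, so these levels overlapped across mice and the ratio of means was 1.42, while against the 16.7, 31.8 and 27 CPM of Icam1 Fabp4 cells it was 2.71. No UMI of Alk or Ltk, the receptors for Alkal2, was counted in members, which allows up to 0.871, 1.35 and 0.961 CPM in mice 1, 2 and 3.

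Mfap4 sat almost wholly in the members that had Cilp. Its level was 323, 378 and 228 CPM in members with Cilp and 3.57, 1.23 and 7.69 CPM in members without, and the latter range overlapped that of the Dpp4 Pi16 cells. With each cell thinned to 3000 UMIs, 29.2% (95% interval 21.2 to 38.2), 22.4% (11.8 to 36.6) and 22.4% (14.0 to 32.7) of members with Cilp had an Mfap4 UMI, against 0.612%, 0.758% and 1.5% of members without and 0.52%, 0.307% and 0.779% of Dpp4 Pi16 cells. Without thinning the shares were 40.0%, 26.0% and 36.0% against 0.567%, 1.48% and 1.66%. Thinning left out 10, 1 and 4 shallower members with Cilp and 26, 3 and 29 without.

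Ccn5 followed the same order to a lesser degree, at 654, 551 and 452 CPM in members with Cilp and 64.7, 95.1 and 83.8 CPM in members without, the latter still above the Dpp4 Pi16 cells of each mouse. Igfbp3 differed less by Cilp, at 426, 546 and 481 against 248, 383 and 290.2 CPM, and Alkal2 ran from 57.2 to 81.6 CPM with Cilp and from 47.7 to 107 CPM without. Of the 269 members with Cilp 112 had no Myoc UMI, and in each mouse most had no Mfap4 UMI, so in most members the 3 genes of the name were not counted together. In the 850 members without Cilp, Igfbp3 was above the Dpp4 Pi16 cells without overlap.

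**Figure D2:**
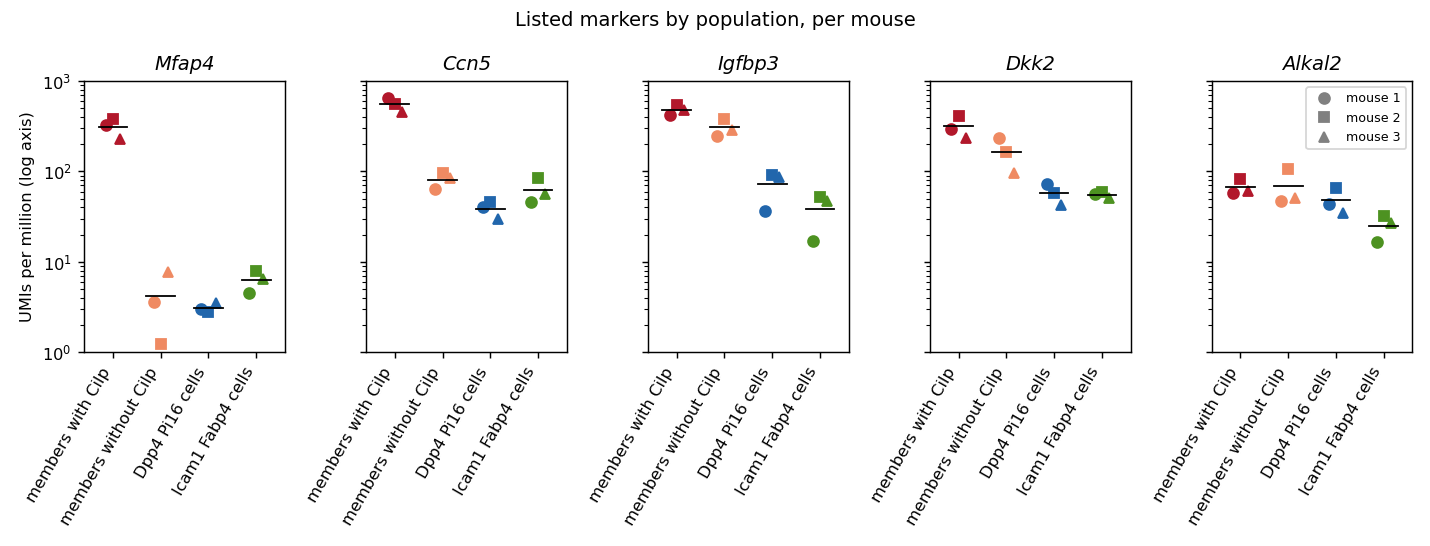
Levels (y axis, CPM, log axis) of 5 listed markers in members with and without Cilp, Dpp4 Pi16 cells and Icam1 Fabp4 cells, with a point for each of 3 mice and a bar for the mean. Mfap4 ran from 228 to 378 CPM in members with Cilp and was under 9 CPM in the other populations.

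Markers of other cell types were low in the members. The summed level of 7 endothelial markers was 11.9, 6.76 and 6.4 CPM in mice 1, 2 and 3, with Kdr the most abundant and Cdh5, Emcn and Tie1 at 0. This was above the 7.86, 2.2 and 2.56 CPM of Dpp4 Pi16 cells in each mouse, though none of the 5 genes tested was called. The 8 leukocyte markers summed to 4.06, 11.3 and 3.2 CPM, with C1qa, Cd3e and Adgre1 at 0. The 7 adipocyte markers summed to 1.16, 0.451 and 0.961 CPM and the 5 epithelial ones to 0, 0.451 and 1.28 CPM. The 5 erythroid genes summed to 74.3, 4.06 and 18.3 CPM, led by Hbb-bs and highest in mouse 1, against 25.7, 5.56 and 20.8 in Dpp4 Pi16 cells. The 10 cartilage and bone markers reached 29, 18.5 and 16.6 CPM, against 9.84, 13.2 and 13.5 in Dpp4 Pi16 cells, mostly Sox9, with Acan, Matn3, Hapln1, Sp7, Bglap and Ibsp at 0. The 8 cycling genes stood at 11.3, 21.6 and 8.64 CPM, the 4 perineurial genes at 10.5, 12.6 and 16 and the 6 muscle genes at 3.48, 6.31 and 1.28.

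Lists of 4 further cell types held genes that were called between members and Dpp4 Pi16 cells. The 9 mural markers summed to 59.8, 53.2 and 72.7 CPM in members, above the 21.2, 22.9 and 32.1 CPM of Dpp4 Pi16 cells and below the 95.3, 71.6 and 113 CPM of Icam1 Fabp4 cells. Abcc9, a potassium channel subunit and the most abundant, stood at 30.2, 26.1 and 45.8 CPM and was higher in members than in Dpp4 Pi16 cells by 1.72 ± 0.127 (log2, SE, adjusted p = 1.25e-05). Kcnj8 was higher by 1.37, a call lost without mouse 2 (1.38, adjusted p = 0.0555), and Cspg4 by 2.25, lost without mouse 1 (1.6, adjusted p = 0.115). The contractile and pericyte genes Acta2, Myh11, Notch3 and Rgs5 were near the floor with 7, 4, 4 and 1 UMIs in all members, at levels below the Dpp4 Pi16 cells on average (adjusted p = 0.645 to 0.8). The 8 tenocyte markers summed to 32.8, 60 and 24.3 CPM, against 1.56, 1.13 and 2.26 CPM in Dpp4 Pi16 cells and 3.88, 8.32 and 3.23 CPM in Icam1 Fabp4 cells. Tnmd, the tendon protein tenomodulin, was the most abundant on average, at 24.7, 36.5 and 9.29 CPM against 0.178, 0.471 and 0.328, though in mouse 3 Thbs4 was higher at 13.4 CPM, and Comp and Chad were at 0.

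The 8 Schwann markers, at 26.4, 38.3 and 21.5 CPM, overlapped the 32.6, 27.7 and 24.1 CPM of Dpp4 Pi16 cells, with Sox10 and Foxd3 at 0. Their members moved in opposite directions. S100b, the most abundant, stood at 12.5, 20.7 and 7.04 against 2.4, 3.67 and 1.75 CPM, without overlap, a rise of 2.31 (adjusted p = 0.000293 by the test described next). The directions turned against Icam1 Fabp4 cells, with S100b at -0.99 (adjusted p = 0.00401), Cdh19 at -1.91 and Mbp at 1.96. Relative to Dpp4 Pi16 cells Cdh19 rose by 1.96 (adjusted p = 0.0218) and Mbp changed by -1.05 (adjusted p = 0.0107), but Cdh19 lost its call with any 1 mouse left out (adjusted p = 0.424, 0.0844 and 0.0718) and Mbp without mouse 1 (-0.80, adjusted p = 0.0845) or mouse 2 (-1.01, adjusted p = 0.106). The 6 mesothelial markers were lower, at 3.77, 1.35 and 1.6 CPM against 13.2, 6.43 and 11.6, without overlap. Nearly all of the latter was the keratin Krt19, which changed by -2.94 (adjusted p = 0.000597). Without mouse 1 Krt19 had 2 UMIs in members and its pooled level was 24.2-fold lower (95% exact interval 6.68 to 200, counting error only). Msln, Lrrn4 and Upk1b were at 0. The part of mural, tendon, Schwann and mesothelial cells in the results was not tested.

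Members were then compared with Dpp4 Pi16 cells, to ask what set them apart from the ASC population, whose markers most of them carried. UMIs were summed per mouse and population, and adjusted p-values are Benjamini-Hochberg values of edgeR's quasi-likelihood test with the mouse as a block, over the 13225 genes tested. Of these, 480 (3.63%) were higher and 303 (2.29%) were lower in members, 221 and 78 of them by at least 2-fold. The counts for gene lists against all Dpp4 Pi16 cells stand beside these shares of all genes. The Dpp4 Pi16 cells were not gated on Clec11a or the Krtdap set, and only 3015, 985 and 4142 of them met those conditions. Against these cells, called matched Dpp4 Pi16 cells from here on, 250 of 12608 genes tested were higher and 90 lower. List counts against matched cells stand beside these smaller counts. Against all Dpp4 Pi16 cells 783 genes were called, 447 without mouse 1, 387 without mouse 2 and 542 without mouse 3.

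Ccn2, the matricellular protein also known as connective tissue growth factor, led the genes higher than in both populations, ranked by the smaller of their 2 changes among genes with a mean of at least 50 CPM in members. It stood at 53.7, 35.2 and 63.7 CPM in members, 6.64, 10.1 and 8.77 CPM in Dpp4 Pi16 cells and 3.88, 9.14 and 10.1 CPM in Icam1 Fabp4 cells, so members overlapped neither. Its log2 fold change was 2.63 ± 0.249 (SE, adjusted p = 7.93e-05) against Dpp4 Pi16 cells, 2.56 against matched cells and 2.84 ± 0.266 (adjusted p = 5.48e-06) against Icam1 Fabp4 cells. The secreted Wnt modulator Sfrp1 stood at 199, 201 and 161 CPM, against 55.6, 52.9 and 61.9 and against 47.5, 47 and 58.3, and members again stood clear of both. It was higher by 1.71 ± 0.099 (adjusted p = 2.36e-06), by 1.44 against matched cells, and by 1.91 ± 0.102 against Icam1 Fabp4 cells.

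The lipocalin Apod reached 884, 922 and 1104 CPM in members, 298, 380.4 and 294 CPM in Dpp4 Pi16 cells and 161, 371 and 258 CPM in Icam1 Fabp4 cells, and members did not overlap either population. Its log2 fold change against Dpp4 Pi16 cells was 1.59 ± 0.176 (adjusted p = 0.000226), and 1.47 against matched cells. Part of it lay in the 118 members with under 3 UMIs of Dpp4 and Pi16, where Apod was at 3609, 2884 and 17157 CPM. With these members left out, the change against matched cells was 0.78 (adjusted p = 0.00266). These 118 cells had a median depth of 5755.5, 8229 and 3455 UMIs, below the 7508, 12522 and 6980.5 UMIs of the other members. Thbs4, a thrombospondin of tendon and muscle, was at 32.8, 69.3 and 296 CPM in these cells and at 3.9, 0.985 and 3.32 CPM in the other members, against 0.289, 0.126 and 0.251 in Dpp4 Pi16 cells. Its change was 5.26 (adjusted p = 9.55e-05), 4.34 (adjusted p = 0.000631) against matched cells, and 2.7 (adjusted p = 0.0841) with the 118 cells left out as well. Values given below for members with at least 3 UMIs of Dpp4 and Pi16 are likewise against matched cells.

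The other genes higher in members than in both populations included components of the matrix. Fbln1, an elastic fibre glycoprotein, reached 539.8, 711 and 683 CPM in members against 229, 331 and 268 in Dpp4 Pi16 cells and 85.8, 161 and 158 in Icam1 Fabp4 cells, higher by 1.22 (adjusted p = 4.88e-05, 0.84 against matched cells) and 2.32. Col12a1, a fibril-associated collagen, was higher by 1.22 (1.52 against matched cells) and 3.13. Tgfbi, an adhesion protein induced by TGF-beta, was higher by 1.44 (0.99) and 1.69, and the lubricating proteoglycan Prg4 by 1.37 (1.23) and 3.7. The complement component C7 was higher by 1.31 (0.93) and 2.18. Its level was 850.4, 115 and 876 CPM in members, so mouse 2 was far lower, as it also was in Dpp4 Pi16 cells at 301, 46 and 406 CPM.

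Nrcam, a neuronal adhesion molecule, rose by 1.21 (0.73 against matched cells) and 3.7, the heparan sulphate proteoglycan Gpc3 by 1.01 (0.87) and 3.41, the membrane protein Gas1 by 1.25 (0.82) and 1.11, and the transporter Abca8a by 1.02 (0.75) and 0.93. The 12 genes of this group, each higher in every mouse, were the largest among 84 that met the same conditions. Each of the 12 kept its call in both comparisons with any 1 mouse left out and against matched cells.

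**Figure D3:**
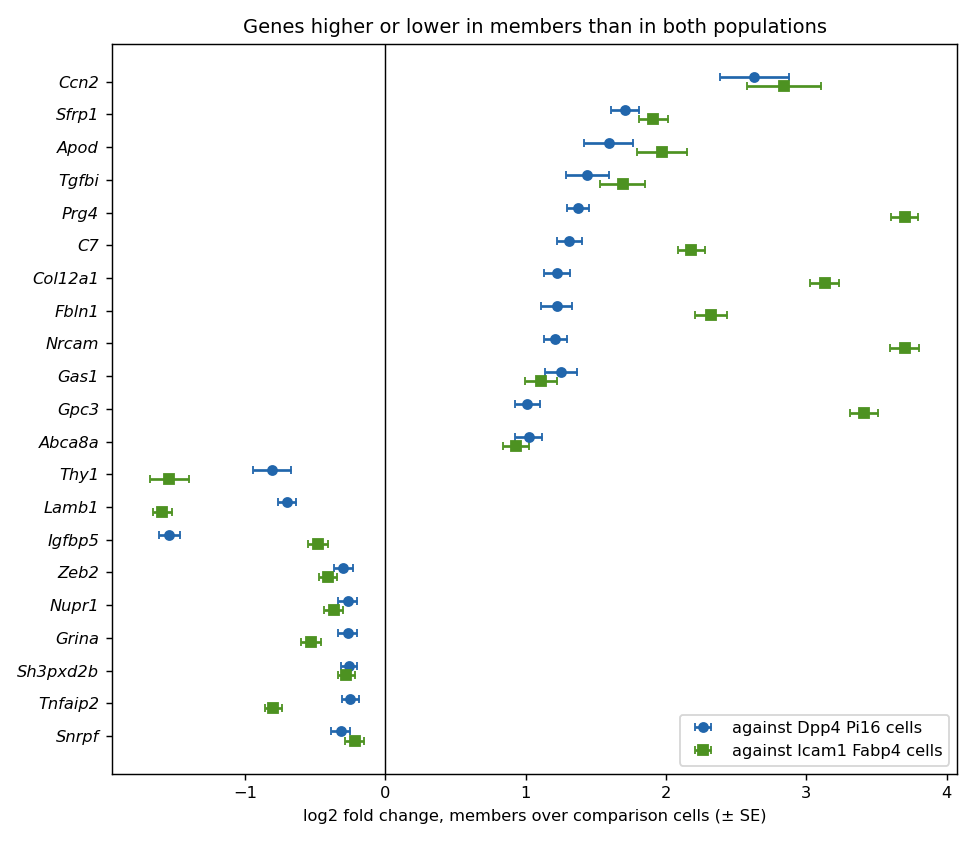
Log2 fold changes (x axis, with SE) of members over Dpp4 Pi16 cells (circles) and over Icam1 Fabp4 cells (squares) for the genes named as higher or lower than both, 1 gene per line. Ccn2 lies farthest to the right among changes against Dpp4 Pi16 cells at 2.63, and Igfbp5 farthest to the left at -1.54.

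Fewer genes were lower than in both populations, and 9 met the conditions. Igfbp5, another binding protein for insulin-like growth factors, was at 1226, 753 and 1474 CPM in members against 3426, 2501 and 3829.8 CPM in Dpp4 Pi16 cells and 1662, 1217 and 1962 CPM in Icam1 Fabp4 cells. The levels overlapped with Icam1 Fabp4 cells across mice, though members were lower within each mouse. It changed by -1.54 ± 0.0749 (adjusted p = 9.92e-07) and by -0.48 ± 0.0736 (adjusted p = 0.000284), and by -0.80 against matched Dpp4 Pi16 cells. Lamb1, a laminin chain of basement membranes, changed by -0.70 (-0.62 against matched cells) and -1.59.

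Thy1, a surface glycoprotein of mesenchymal cells, changed by -0.81 and -1.54, and the call against Dpp4 Pi16 cells was lost without mouse 3 (-0.69, adjusted p = 0.078). The remaining 6 (Zeb2, Nupr1, Grina, Sh3pxd2b, Tnfaip2 and Snrpf) were lower than in Dpp4 Pi16 cells by at most 0.32 on the log2 scale. All of these lost that call when at least 1 mouse was left out, with adjusted p-values of 0.0785 to 0.407 in the fits that lost it. Nupr1 (-0.23, adjusted p = 0.085) and Snrpf (-0.3, adjusted p = 0.0605) also lost it against matched cells, where the others kept it.

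Apart from the genes higher than both, the largest rises against Dpp4 Pi16 cells among genes at 50 CPM or more in members were in Thbs1, Angptl1, Cxcl14, Mgp, Bgn and Rrad. Thbs1, the matricellular protein thrombospondin 1, stood at 65, 73.5 and 75.6 CPM against 8.71, 5.62 and 11 CPM, without overlap, a rise of 3.05 ± 0.174 (adjusted p = 2.36e-06, 2.55 against matched cells). It was lower than the 173, 222 and 250.5 CPM of Icam1 Fabp4 cells, by 1.57 on the log2 scale. The proteoglycan biglycan (Bgn) stood at 319, 398 and 302 CPM against 60.8, 87.9 and 66.4 CPM, again without overlap, a rise of 2.25 ± 0.0909 (adjusted p = 1.93e-07, 2.06 against matched cells). Angptl1, an angiopoietin-like secreted protein, rose by 2.85 (2.58). The chemokine Cxcl14 was at 208, 417 and 84.2 CPM against 40.2, 38.9 and 34.1 CPM and rose by 2.46 (2.48), a call lost for members without Cilp (1.67, adjusted p = 0.0937) and for members with at least 3 UMIs of Dpp4 and Pi16 (1.39, adjusted p = 0.0533).

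The largest falls against Dpp4 Pi16 cells, among genes at 50 CPM or more there and not lower than both, were smaller against matched cells. Akr1c18, a steroid-metabolising reductase, stood at 43.8, 41.5 and 64.7 CPM against 155, 187 and 166 CPM and changed by -1.77 (adjusted p = 0.000115), but by -1.03 against matched cells. The integrin subunit Itgb7 changed by -1.75 (adjusted p = 0.00229), but by -0.24 (adjusted p = 0.711) against matched cells. Aif1l went from -1.19 to -0.76 in the same way, the guidance ligand Sema3e from -1.15 to -0.77 and Bmp2 from -1.14 to -0.65, and these 3 kept their calls.

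Against Icam1 Fabp4 cells more genes were called, with 2669 genes (20.2%) higher and 2597 (19.6%) lower in members, 1082 and 874 of them by at least 2-fold, the shares beside which list counts in this comparison stand. The largest rises among genes at 50 CPM or more in members were in 6 genes, Sema3d, Smpd3, Uchl1, Aldh1a3, Crispld1 and Car8. The sphingomyelinase Smpd3 stood at 388, 601 and 630.1 CPM in members, 423, 614 and 566 CPM in Dpp4 Pi16 cells and 12.3, 22.9 and 26.7 CPM in Icam1 Fabp4 cells, so members overlapped the former and not the latter, with a rise of 4.76 ± 0.112 (adjusted p = 9.2e-10). The semaphorin Sema3d rose by 5.26, the ubiquitin hydrolase Uchl1 by 4.7, the retinaldehyde dehydrogenase Aldh1a3 by 4.52, Crispld1 by 4.49 and Car8, a carbonic anhydrase-related protein, by 4.19. Against Dpp4 Pi16 cells Car8 was lower (-0.69, and -0.43 against matched cells). Aldh1a3 changed by -0.54 there, a call lost against matched cells (-0.14, adjusted p = 0.622), without mouse 1 (-0.43, adjusted p = 0.115) and without mouse 2 (-0.51, adjusted p = 0.058). Uchl1 turned from -0.38 (adjusted p = 0.0157) to 0.46 against matched cells (adjusted p = 0.0268), and Sema3d went from 0.17 (adjusted p = 0.501) to 0.49 (adjusted p = 0.0196). At lower levels Fgf9, Col8a1 and Tnmd rose by 5.57, 5.06 and 4.78, and these were also above Dpp4 Pi16 cells.

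The genes that fell furthest against Icam1 Fabp4 cells, among those at 50 CPM or more there, were close to undetected in members. The fatty acid transporter Cd36 was at 6.68, 0.451 and 2.88 CPM in members against 245, 99.6 and 131 CPM, a change of -5.49 (adjusted p = 1.13e-08). Gucy1a1 and Gucy1b1, the subunits of soluble guanylate cyclase, were at 2.03, 0.451 and 0.32 and at 3.19, 0 and 0.32 CPM, against 117, 44.8 and 76.1 and against 67.7, 32.5 and 51.5. Olfm2 stood at 2.32, 0 and 0 CPM against 78.7, 70.9 and 52.2 CPM, the metalloprotease Adam12 at 4.36, 2.71 and 0.64 against 139.8, 77.7 and 106, and the laminin chain Lamc3 at 2.9, 0 and 0.961 against 89.3, 37.7 and 40. The fitted changes of Gucy1a1, Gucy1b1, Olfm2 and Lamc3 were -6.32, -5.28, -6.20 and -5.31. In mice 2 and 3 together their UMIs in members numbered 2, 1, 0 and 3. Without mouse 1 the pooled level was thus 154-fold lower for Gucy1a1 (95% exact interval 42.7 to 1280) and 216-fold lower for Gucy1b1 (38.6 to 8520). It was 68.9-fold lower for Lamc3 (23.5 to 334) and at least 112-fold lower for Olfm2, taking 3 UMIs over both mice as the floor. These intervals cover counting error only, not the spread between cells or mice.

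Marker lists of the ASC, PreA and Areg populations placed the members. The 9 ASC markers summed to 5750.3, 6193 and 7461 CPM in members, 7841, 7842 and 8414 CPM in Dpp4 Pi16 cells and 449, 261 and 482 CPM in Icam1 Fabp4 cells. Dpp4 and Pi16 are among them, the Dpp4 Pi16 cells were gated on both and the Icam1 Fabp4 cells on Dpp4. Of the 7 ASC markers tested, all 7 were higher in members than in Icam1 Fabp4 cells (Anxa3, an annexin, by 3.84 and Sema3c by 3.6), and 3 were lower than in Dpp4 Pi16 cells. Of these 3, Cd55, which shields cells from complement, changed by -0.87 (-0.57 against matched cells) and Limch1 by -0.90 (-0.45), while Sema3c changed by -0.53, a call lost against matched cells (-0.22, adjusted p = 0.208).

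The 11 PreA markers summed to 1743, 1358 and 1068 CPM in members, 1145, 820.4 and 825 CPM in Dpp4 Pi16 cells and 13676, 10281 and 13259.5 CPM in Icam1 Fabp4 cells. Icam1 and Fabp4 are among them and all 3 populations were gated on both, so part of this gap was set by the gates. Of the 9 tested, 8 were lower than in Icam1 Fabp4 cells, among them Sparcl1 by 4.44 on the log2 scale, the adipogenic receptor Pparg by 3.44 and lipoprotein lipase (Lpl) by 2.32, and 1 was higher. Against Dpp4 Pi16 cells 5 were higher. Against matched cells Sparcl1 went from 0.85 to 0.42 (adjusted p = 0.205), Lpl from 0.48 to 0.16 (adjusted p = 0.517), Ggt5 from 1.07 to 0.58 (adjusted p = 0.0871) and Dlk1, counted 23 times in members, from 3.69 to 3.0 (adjusted p = 0.0997). The call of Dlk1 was also lost without mouse 1 (3.08, adjusted p = 0.0871) and without mouse 3 (3.56, adjusted p = 0.055). Col15a1 went from 1.72 to 1.36 and kept its call, but the call was lost for members with at least 3 UMIs of Dpp4 and Pi16 (0.16, adjusted p = 0.856). Of the 5 Areg markers tested, 4 were higher than in Dpp4 Pi16 cells, matched or not, and Gdf10 changed by -0.38 (adjusted p = 0.0707) and by -0.69 (adjusted p = 0.0101) against matched cells. Against Icam1 Fabp4 cells F3, Cygb and Gdf10 were lower, Gdf10 by 1.37 on the log2 scale. Relative to Dpp4 Pi16 cells Cygb, a globin, rose by 1.4 (1.04), while tissue factor (F3) rose by 1.71 (1.82) and Mgp, an inhibitor of calcification, by 2.4 (2.82).

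Genes of elastic fibres and microfibrils split in direction against Dpp4 Pi16 cells. Of 20 tested, 10 were higher and 6 lower in members (6 and 2 against matched cells), with a median log2 change of 0.18 beside -0.04 over all genes tested. Lox, which crosslinks elastin and collagen, stood at 317, 297 and 341 CPM against 95.8, 93 and 106 CPM, with no overlap, a rise of 1.69 ± 0.067 (adjusted p = 1.93e-07, 1.22 against matched cells). Fibulin 2 (Fbln2) stood at 593, 489 and 569.9 CPM against 271, 271 and 261 CPM, also without overlap, and rose by 1.03 (0.92). The TGF-beta binding protein Ltbp4 rose by 0.91 (1.02), and elastin (Eln) by 0.74 (0.72), a call lost without mouse 3 (0.58, adjusted p = 0.0954).

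Other abundant genes of this list went the other way, though of Fbn1, Mfap5 and Efemp1 only Efemp1 kept its call against matched cells. Fibrillin 1 (Fbn1) changed by -0.27, a call lost without mouse 1 (-0.22, adjusted p = 0.166), without mouse 2 (-0.27, adjusted p = 0.0647), without mouse 3 (-0.29, adjusted p = 0.0531) and against matched cells (-0.12, adjusted p = 0.349). Mfap5 changed by -0.49, lost against matched cells (-0.21, adjusted p = 0.129), and Efemp1 by -0.78 (-0.59). Of the 20, 15 were higher and 2 lower than in Icam1 Fabp4 cells (median 0.52, beside -0.03 over all genes tested), with Fbn1 higher by 1.57, Mfap5 by 1.32 and Eln by 1.07. Efemp1 was higher by 0.47, but lower by 0.71 when only members with Cilp were taken (adjusted p = 0.000434).

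Small leucine-rich proteoglycans, which coat and space collagen fibrils, were called in 1 direction against Dpp4 Pi16 cells. Of 10 tested, 7 were higher and 0 lower by edgeR (median 0.36) and by DESeq2, and 5 and 0 against matched cells. At an unadjusted p under 0.05 in edgeR the counts against Dpp4 Pi16 cells were 9 and 0. Beside biglycan, podocan (Podn) rose by 0.98 (0.69), lumican (Lum) by 0.57 (0.43, and 0.08 with an adjusted p of 0.753 for members with at least 3 UMIs of Dpp4 and Pi16) and osteoglycin (Ogn) by 0.39 (0.29). Decorin (Dcn), at 12368, 16075 and 12710.3 CPM against 10932, 13742 and 11050.3 CPM, rose by 0.19, a call lost against matched cells (0.16, adjusted p = 0.0819) and without mouse 1 (0.2, adjusted p = 0.234), mouse 2 (0.22, adjusted p = 0.0631) or mouse 3 (0.2, adjusted p = 0.0794). In the comparison with Icam1 Fabp4 cells 5 were higher and 4 lower. Ogn was higher by 1.13, Lum was lower by 1.9 on the log2 scale, and Bgn changed by -1.30, which became 0.26 (adjusted p = 0.14) in members with Cilp.

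Collagens are the main fibres of the matrix. Among 9 fibrillar and fibril-associated chains, Col12a1 alone was called against Dpp4 Pi16 cells (11.1%, beside 3.63% of all genes, median -0.03), and against matched cells Col3a1 and Col1a1 were also called, as lower. Col3a1 stood at 9103, 10619.6 and 8964 CPM in members, 10122, 10748 and 9914 CPM in Dpp4 Pi16 cells and 17119, 19019.8 and 19259.9 CPM in Icam1 Fabp4 cells, a change of -0.93 against the latter. Of these 9 chains, 3 were higher than in Icam1 Fabp4 cells, Col14a1 by 2.92, and 6 were lower. Col8a1, a short-chain collagen of vessel walls, was at 14.8, 15.3 and 56.4 CPM, highest in mouse 3, against 0.822, 0.91 and 1.58 CPM in Dpp4 Pi16 cells, a rise of 4.61 ± 0.316 (adjusted p = 6.53e-06, 5.56 against matched cells). Of the 7 collagen VI and VIII chains, 3 (42.9%) were higher than in Dpp4 Pi16 cells and 2 against matched cells. Col6a3 went from 0.2 (adjusted p = 0.0379) to -0.02 (adjusted p = 0.93) there, and lost its call with any 1 mouse left out (adjusted p = 0.259, 0.183 and 0.0504). Of these 7 chains, 3 were higher and 3 lower than in Icam1 Fabp4 cells, with Col6a3 at -1.76.

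Of 14 basement membrane genes, 3 were higher and 3 lower than in Dpp4 Pi16 cells (1 and 2 against matched cells), and 4 were higher and 7 lower than in Icam1 Fabp4 cells. Col4a1 was at 563, 358 and 321 CPM in members and 3797, 2802 and 4012 CPM in Icam1 Fabp4 cells, lower by 3.1 on the log2 scale. Of 16 matricellular genes, 7 were higher and 1 lower than in Dpp4 Pi16 cells, with 4 higher against matched cells (Thbs1, Ccn2, Thbs4 and Smoc2), and 6 were higher and 7 lower than in Icam1 Fabp4 cells. The calcium-binding protein Smoc2 rose by 1.49 (1.15). Of 19 proteases and inhibitors, 2 were higher and 3 lower than in Dpp4 Pi16 cells (beside 3.63% and 2.29% of all genes), among them the metalloprotease inhibitor Timp1 at 0.72 (0.72). Against matched cells only Timp1 was higher, and the 2 lower genes (Htra1 and Mmp3) were not among the former 3. In this list 6 were higher and 9 lower than in Icam1 Fabp4 cells. Among 6 genes that share the olfactomedin domain of Myoc, Olfml3 was higher than in Dpp4 Pi16 cells by 1.11 (0.77) and Olfml2a was lower (-1.85, adjusted p = 0.0052), but lost its call without mouse 3 (-1.59, adjusted p = 0.116) and turned to 1.22 (adjusted p = 0.226) against matched cells.

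**Figure D4:**
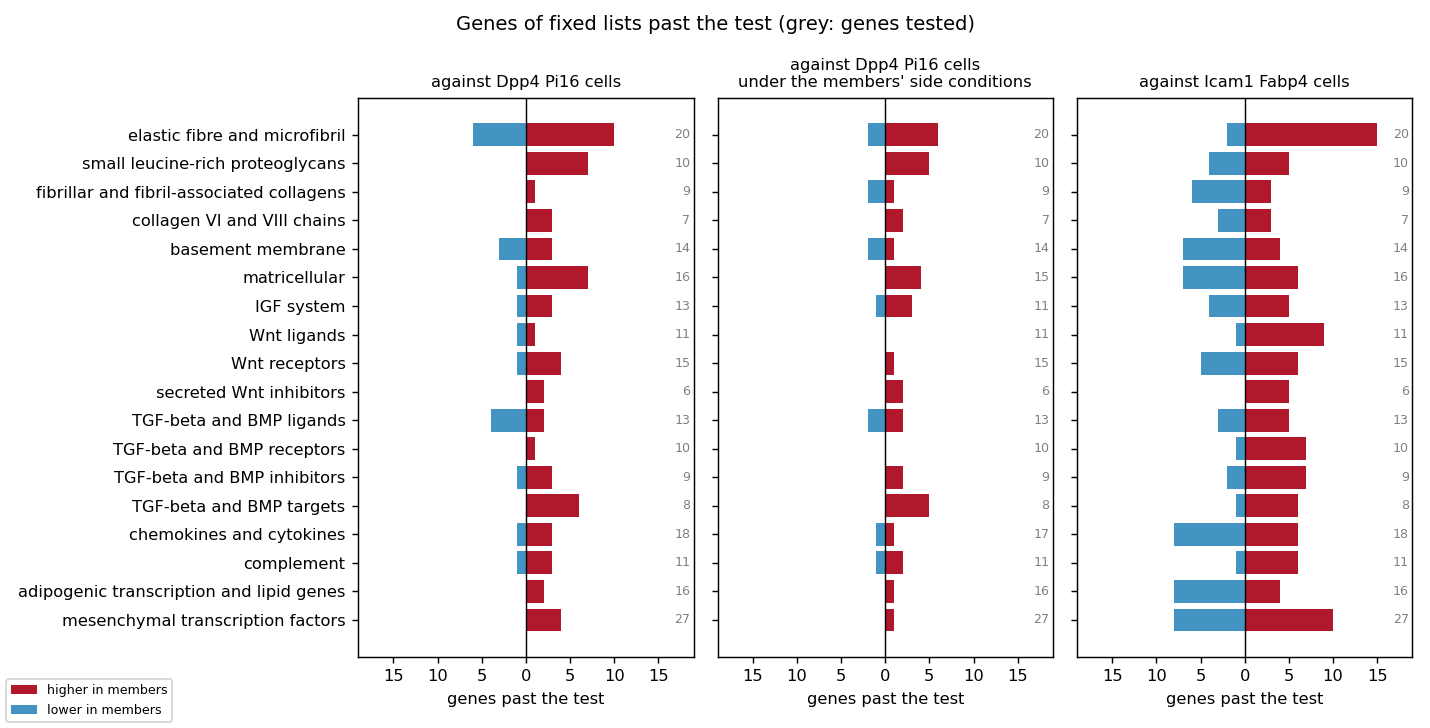
Number of genes of each list (lines) that passed the test (x axis, higher in members to the right and lower to the left), against Dpp4 Pi16 cells, against those under the members' side conditions, and against Icam1 Fabp4 cells, with the number tested in grey. Against Dpp4 Pi16 cells the elastic fibre list has 10 genes to the right and 6 to the left, and the proteoglycan list 7 and 0.

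The IGF system held opposite changes beside the listed marker Igfbp3. Of 13 genes tested against Dpp4 Pi16 cells, 3 were higher (Pappa2, Igfbp7 and Igf1) and 1 lower (Igfbp5), and the same 4 were called against matched cells. The ligand Igf1 stood at 299.9, 381 and 394 CPM against 125, 147 and 187 CPM, without overlap, a rise of 1.22 ± 0.1 (adjusted p = 2.88e-05, 0.84 against matched cells). Igfbp7 stood at 508, 733 and 368 CPM against 203, 295 and 228, a rise of 1.11 (0.75), but was lower than in Icam1 Fabp4 cells by 1.69 on the log2 scale. Pappa2, a protease that cleaves Igfbp3 and Igfbp5, was at 15.7, 10.8 and 13.4 CPM against 0.755, 0.659 and 1.04 CPM, without overlap, a rise of 4.05 (3.67). Relative to Icam1 Fabp4 cells 5 were higher, Igfbp4 by 1.89 and Igfbp6 by 1.23, and 4 were lower.

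The list of Wnt ligands also held R-spondins (Rspo genes). Of its 11 genes tested, Rspo1 was higher and Wnt10b lower than in Dpp4 Pi16 cells (9.09% each, beside 3.63% and 2.29% of all genes). None was called against matched cells by edgeR, where 1 and 2 had an unadjusted p under 0.05. Wnt10b changed by -0.91, and by -0.33 (adjusted p = 0.203) against matched cells. Of the 11, 9 were higher (median 1.95), Rspo1 and Rspo2 among them, and 1 lower than in Icam1 Fabp4 cells. Wnt10b was higher by 3.99 and Wnt2 by 3.04. Of 15 Wnt receptors 4 were higher and 1 lower than in Dpp4 Pi16 cells, with 1 left against matched cells. This was Lgr5, a receptor for R-spondins, at 9.87, 15.8 and 14.1 CPM against 0.244, 0.879 and 1.75 CPM, with no overlap, a rise of 3.94 ± 0.435 (adjusted p = 0.00022, 3.29 against matched cells). Without mouse 3 it was 4.69.

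Among Wnt inhibitors, not all of them secreted, 2 of 6 were higher than in Dpp4 Pi16 cells. Of the same 6, 5 were higher than in Icam1 Fabp4 cells, the membrane protein Apcdd1 among them. Beside Sfrp1, Sfrp2 stood at 788, 1499 and 1286 CPM against 588, 909 and 817 and against 47.3, 146 and 105. It rose by 0.58 against Dpp4 Pi16 cells (0.45 against matched cells), lost without mouse 2 (0.56, adjusted p = 0.0652) and without mouse 3 (0.55, adjusted p = 0.215), and by 3.68 against Icam1 Fabp4 cells, where Sfrp4 rose by 3.64. Of 4 Wnt targets, the feedback inhibitor Nkd1 was higher than in Dpp4 Pi16 cells, by 1.19 (0.91), and 2 were higher than in Icam1 Fabp4 cells.

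TGF-beta and BMP ligands were called in both directions, and most of the targets were higher. Of 13 ligands tested against Dpp4 Pi16 cells 2 were higher and 4 lower, 2 and 2 against matched cells. The BMP family ligand Gdf6 was at 6.39, 10.8 and 4.16 CPM against 1.04, 1.26 and 0.598 and rose by 2.83 (2.32). Relative to Icam1 Fabp4 cells 5 were higher, Bmp7 by 4.74 and Tgfb2 by 1.97, and 3 lower, though for members with Cilp alone the change of Tgfb2 was 0.55 (adjusted p = 0.129). Of 10 receptors, 1 was higher than in Dpp4 Pi16 cells and none was called against matched cells by edgeR, where 2 on either side had an unadjusted p under 0.05, while 7 were higher than in Icam1 Fabp4 cells, with Tgfbr3 higher by 1.67, and 1 was lower.

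Of 9 inhibitors, 3 were higher and 1 lower than in Dpp4 Pi16 cells, and 2 were higher against matched cells. Follistatin (Fst), which binds activins, stood at 567, 445 and 449 CPM against 324, 254 and 315 CPM and rose by 0.7 (0.52 against matched cells). Fst changed by -0.40 against Icam1 Fabp4 cells, and by 0.16 (adjusted p = 0.208) in members with Cilp. Of 8 targets, 6 were higher than in Dpp4 Pi16 cells (median 0.57) and 5 against matched cells, Ccn2, Tgfbi and Id1 by most, Id1 by 1.38 (1.02). Relative to Icam1 Fabp4 cells 6 targets were higher and 1 lower (median 1.45), with Pmepa1 higher by 1.75 and Id3 by 1.21.

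Of 15 ALK ligands, neurotrophic factors and their receptors, 4 were higher than in Dpp4 Pi16 cells and 1 against matched cells. This was Gfra1, a co-receptor for GDNF, at 15.1, 12.2 and 12.8 CPM against 1.73, 1.29 and 2.01 and against 1.78, 0.919 and 2.23, with members clear of both. It rose by 2.98 ± 0.215 (adjusted p = 1.06e-05, 2.77 against matched cells) and by 3.08 against Icam1 Fabp4 cells, where 5 of the list were higher and 4 lower. The growth factor Fgf9 was at 17.7, 18.9 and 18.9 CPM against 1, 1.79 and 0.983 and against 0.0539, 0.51 and 0.718, and rose by 3.93 (3.47) and 5.57.

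Of 18 chemokines and cytokines, 3 were higher (16.7%) and 1 lower (5.56%) than in Dpp4 Pi16 cells, beside 3.63% and 2.29% of all genes, and 1 and 1 were called against matched cells. Il6 rose by 0.58, lost against matched cells (0.29, adjusted p = 0.119), and was higher than in Icam1 Fabp4 cells by 1.1. Cxcl14, above its level in Dpp4 Pi16 cells, was lower than in Icam1 Fabp4 cells by 2.24 on the log2 scale, and in all 6 of the list were higher and 8 lower there. Of 11 complement genes, 3 were higher and 1 lower than in Dpp4 Pi16 cells (2 and 1 against matched cells). C4b stood at 412, 568 and 390.3 CPM against 217, 307 and 219, without overlap, and rose by 0.87 (0.5). Against Icam1 Fabp4 cells 6 were higher, C3 by 1.23 and Cd55 by 2.28, and 1 lower.

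Of 16 adipogenic and lipid genes, 2 (12.5%, beside 3.63% of all genes) were higher than in Dpp4 Pi16 cells, with a median change of 0.06. Against matched cells only Cebpd was higher. The transcription factor Cebpd, at 1576, 1806 and 1132 CPM against 907, 1077 and 698 CPM, rose by 0.74 (0.53), which was 0.43 (adjusted p = 0.071) for members with at least 3 UMIs of Dpp4 and Pi16. Against Icam1 Fabp4 cells 4 were higher and 8 lower, beside 20.2% and 19.6% of all genes (median -0.66). Of 15 mesenchymal surface genes, 4 were higher and 2 lower than in Dpp4 Pi16 cells (1 and 1 against matched cells). The tetraspanin Cd9, a marker of fibrogenic fat progenitors, stood at 244, 321 and 145 CPM against 89, 131 and 84.6, a rise of 1.19 (0.94), while Ly6a was higher than in Icam1 Fabp4 cells by 0.78, where 7 were higher and 4 lower.

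None of 7 myofibroblast genes was called against Dpp4 Pi16 cells by edgeR or DESeq2, and 1 had an unadjusted p under 0.05, and 4 were lower than in Icam1 Fabp4 cells. Of 27 mesenchymal transcription factors, 4 were higher than in Dpp4 Pi16 cells (beside 3.63% of all genes), and Foxp2 alone was called against matched cells. This forkhead factor was at 14.2, 13.5 and 19.5 CPM against 4.09, 4.9 and 5.21 and against 2.59, 3.22 and 4.96, with members above both, and rose by 1.74 (1.42) and 2.2. Against Icam1 Fabp4 cells 10 factors were higher, Prrx1 by 0.88, and 8 lower, beside 20.2% and 19.6% of all genes. Of 18 genes that respond to tissue dissociation, 6 were higher than in Dpp4 Pi16 cells, but only Socs3 against matched cells (0.96 and 0.67), and against Icam1 Fabp4 cells 2 were higher and 9 lower. The part of the dissociation response in the results was not tested.

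Members with Cilp were last compared with members without, again within each mouse, with 130, 50 and 89 cells against 353, 135 and 362. Of 8269 genes tested, 263 (3.18%) were higher and 211 (2.55%) lower in members with Cilp, 130 and 62 of them by at least 2-fold, and list counts by Cilp stand beside these shares. In all 474 genes were called, 280 without mouse 1, 577 without mouse 2 and 245 without mouse 3, and DESeq2 called 185. Calls for genes at low level rest on few cells, above all in mouse 2.

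The largest rises among genes at 50 CPM or more with Cilp were in Col8a1, Mgp, Fgf9, Rrad and Tmem176b. Mgp stood at 294, 386 and 191 CPM with Cilp and 27.4, 23.3 and 8.91 CPM without, with no overlap, a rise of 3.85 ± 0.156 (adjusted p = 1.09e-10). The small GTPase Rrad stood at 119, 383 and 211 CPM against 17.5, 14.1 and 17.4 CPM and Fgf9 at 56.2, 61.2 and 68.9 against 3.57, 3.68 and 5.67, rises of 3.67 and 3.81, both without overlap. Col8a1 stood at 42.1, 47.6 and 239 CPM against 4.77, 3.68 and 8.1, a rise of 4.21 that was 3.32 without mouse 3. The membrane protein Tmem176b stood at 36.7, 194 and 23 CPM against 4.77, 12.3 and 4.05, a rise of 3.37 that was 2.77 without mouse 2.

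Several genes called above Dpp4 Pi16 cells for all members were not called for members without Cilp, and not all of them are given here. Of 90 named genes called in that comparison, 26 lost their call with only members without Cilp. The other 64 kept their sign and call, which says nothing of the size of the change. For members without Cilp alone, the change against Dpp4 Pi16 cells was 0.29 for Mgp (adjusted p = 0.917) and 0.03 for Rrad (adjusted p = 0.985), where all members gave 2.4 and 2.05. In the same way Pappa2 was at 1.46 (adjusted p = 0.328), Lgr5 at 1.16 (adjusted p = 0.463), Eln at 0.02 (adjusted p = 0.973), Timp1 at 0.04 (adjusted p = 0.948) and F3 at 0.77 (adjusted p = 0.185). F3 still stood at 21, 24.5 and 26.3 CPM in members without Cilp, above the 14.5, 13.9 and 13.6 CPM of Dpp4 Pi16 cells without overlap. Each of these 7 genes was higher in members with Cilp than in those without, by 3.85, 3.67, 4.29, 4.33, 1.88, 1.78 and 2.2 in that order. Without mouse 3 Lgr5 had 2 UMIs in members without Cilp and its pooled level was 91.8-fold higher with Cilp (95% exact interval 24.4 to 773, counting error only). Other genes were above Dpp4 Pi16 cells in either kind of member. Lox was higher by 2.81 with Cilp and 0.93 without (adjusted p = 3.67e-05), Sfrp1 by 2.77 and 1.02 (adjusted p = 0.000994), Bgn by 3.81 and 0.62 (adjusted p = 0.00181) and Ccn2 by 4.14 and 1.19 (adjusted p = 0.0155).

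Some matrix and signalling lists had more genes called higher than lower in members with Cilp, and others did not. Of 19 elastic fibre genes 9 were higher and 3 lower in members with Cilp (median 0.4, beside -0.01 over all genes tested). Eln stood at 746, 803 and 1629.8 CPM with Cilp and 232, 214 and 388 without, with no overlap, and Lox rose by 1.93, Fbln2 by 1.44 and Ltbp4 by 1.4, while Efemp1 changed by -1.38. Of 9 small leucine-rich proteoglycans 6 were higher (4 by DESeq2). Bgn stood at 962, 1114 and 1017 CPM with Cilp and 82.6, 139.9 and 113 CPM without, a rise of 3.23 ± 0.132 (adjusted p = 1.09e-10), and Podn rose by 1.32. Of 8 TGF-beta and BMP targets 6 were higher, Ccn2 by 2.97 and Id2 by 0.99, and Fst rose by 0.88. Of 14 basement membrane genes, by contrast, 3 were lower. Among 16 proteases and inhibitors 2 were higher and 4 lower, as were 2 and 4 of 15 chemokines and cytokines, beside 3.18% and 2.55% of all genes, while 1 and 2 of 9 TGF-beta and BMP ligands were called and 1 of 9 fibrillar and fibril-associated collagens was higher. None of 6 genes of the Wnt ligand list or of 5 ALK ligands, neurotrophic factors and their receptors was called by edgeR or DESeq2. Of the former 6, 2 had an unadjusted p under 0.05 in edgeR, both as lower.

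Of 9 IGF genes 3 were higher with Cilp (Pappa2, Igf1 by 1.43 and Igfbp7 by 1.46) and 3 lower (median -0.2). Beside Igfbp5 the lower ones were Igfbp4 (-0.52), a call lost without mouse 3 (-0.55, adjusted p = 0.107), and Igfbp6 (-0.38), lost without mouse 1 (-0.43, adjusted p = 0.0881) or mouse 3 (-0.45, adjusted p = 0.276). Of 11 Wnt receptors 3 were higher, and of 5 Wnt inhibitors 2 were, Sfrp1 by 1.8 and Sfrp2 by 1.25. The complement gene C7 rose by 1.32, Cd9 by 1.2 and Olfml3 by 0.98. All 4 Areg markers that were above Dpp4 Pi16 cells were higher with Cilp, Cygb by 1.51 and Fmo2 by 1.89, which was 1.22 without mouse 1. Tnmd was also higher, at 52.9, 117 and 24.5 against 14.3, 7.36 and 5.26 CPM, by 2.64, which was 3.25 without mouse 1 and 2.0 without mouse 2. The erythroid gene Hbb-bs stood at 135, 3.4 and 1.53 CPM with Cilp against 0.397, 0.614 and 6.48 without, and was not tested. Of 18 genes that respond to tissue dissociation, 2 were higher with Cilp (Jun by 0.43 and Socs3 by 0.46) and 0 lower. Other markers of other cell types also differed by Cilp. Abcc9 was higher by 1.8 (adjusted p = 3.12e-05), endothelial Kdr by 1.86 (adjusted p = 0.00908), a call lost without mouse 3 (1.44, adjusted p = 0.131), and S100b by 1.24 (adjusted p = 0.0309), lost without mouse 2 (0.88, adjusted p = 0.299) or mouse 3 (1.13, adjusted p = 0.182). Mbp changed by -2.01 (adjusted p = 0.0126), lost without mouse 1 (-2.15, adjusted p = 0.0704) or mouse 3 (-2.23, adjusted p = 0.0737), and Des by -1.87 (adjusted p = 0.0489), lost without mouse 2 (-1.37, adjusted p = 0.114).

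ASC markers fell with Cilp, 6 of 7 of them. Cd55 stood at 208, 107 and 366 CPM in members with Cilp and 533, 317 and 747 CPM without, lower in every mouse though the ranges overlapped across mice, a change of -1.29 ± 0.126 (adjusted p = 3.45e-06). Limch1 changed by -1.72 and the mitochondrial calcium-binding protein Efhd1 by -1.54. The largest falls by the same conditions were in Sema3e (-2.98), Igfbp5 (-2.05), the potassium channel Kcnk5 (-1.80), the phospholipase Pla1a (-1.78) and Limch1. Igfbp5 stood at 249, 308 and 475 CPM with Cilp against 1584, 914 and 1739 without, with no overlap. The ligands Bmp7 and Tgfb2 also fell, by 2.24 and 1.66 on the log2 scale.

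**Figure D5:**
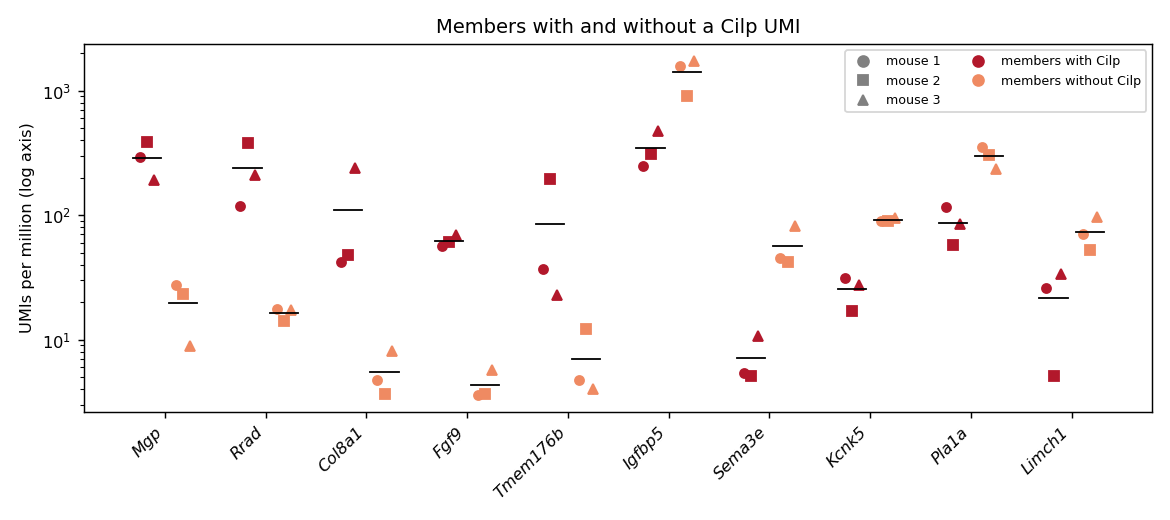
Levels (y axis, CPM, log axis) of the genes with the largest rises and falls, among those at 50 CPM or more, between members with and without a Cilp UMI, with a point for each of 3 mice and a bar for the mean. Mgp lies between 191 and 386 CPM with Cilp and between 8.91 and 27.4 CPM without, and Igfbp5 between 249 and 475 CPM and between 914 and 1739 CPM.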

How the data were processed

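The authors sorted CD31- CD45- SVF cells, prepared 1 droplet library per mouse and deposited raw UMI counts per gene and cell, whole numbers with no normalization. Per the labels the build is mm10 and Cell Ranger 2.1.1 was used, whereas the matrix headers name version 4.0.0. Cells were kept above 500 detected genes and under 5% mitochondrial UMIs (13 mitochondrial genes), and gated on raw UMIs. Counts were summed per mouse and population, giving 9 sums in 1 fit by edgeR 4.0.16 (TMM, filterByExpr, mouse as block, quasi-likelihood test, Benjamini-Hochberg adjustment at 0.05). Levels (CPM) are UMIs per 1000000 of each sum. The members, the comparison populations and the gene lists were chosen with earlier results of these data known. The 11 gate genes and the listed markers were given no test.

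Genes were named by a fixed rule: the 12 with the largest change against both populations in each direction (9 qualified as lower), the 6 largest rises and falls per comparison and the 5 for the Cilp split, each called, with 1 sign in all mice and at 50 CPM or more on average in the higher population (in both comparison populations for genes lower than both). Lists were described by their most abundant and most changed members, and further members were named after their values were seen. A few genes that met these rules are not reported here. The comparison by Cilp took the place of one between members with only Cilp and only Myoc, because fewer than 20 members of mouse 2 had only Cilp. It and the matched gate of the Dpp4 Pi16 cells were chosen after seeing the data.

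Samples share an animal across populations, and same-mouse deviations from the population means correlated at 0.476 to 0.843 over 7631 genes. Simulated data with 200 changed genes gave 177, 177 and 186 recovered and 9, 7 and 2 false calls for the comparisons with Dpp4 Pi16 cells, with Icam1 Fabp4 cells and by Cilp. The changed genes had at least 200 UMIs in all and were changed by 2- or 3-fold in either direction. The spread between sums was assumed. These counts therefore do not carry over to smaller changes, to rarer genes or to the spread of these data. Set against counting noise alone, libraries differed with a chi-square per degree of freedom of 6.61 to 12.9, which holds differences between mice as well as technical ones. Alternatives were DESeq2 1.42.0, library-size scaling, other gates and filters, thinning to 3000 UMIs, and leaving out each mouse, which is the replicate of the settings. PCR duplicates are collapsed by UMI. Limits from a count of 0 (3 UMIs) and exact intervals of pooled levels cover counting error only. The scripts used R 4.3.3 and Python 3.11.15 with pandas 2.3.3, numpy 2.4.6, matplotlib 3.10.9 and scipy 1.17.1.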

Additional observations from a re-analysis of the deposited data

Results flagged for a closer look

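Barcodes removed by the filters also held cells inside the gate. They numbered 8 of 714 removed barcodes in mouse 1 (1.12%), 4 of 458 in mouse 2 (0.873%) and 8 of 1041 in mouse 3 (0.768%). Of these, 7, 4 and 7 had at least 5% mitochondrial UMIs and 1 in each mouse had too few genes. They were used in no comparison.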

How the results depend on the processing

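Against Dpp4 Pi16 cells 783 genes were called (480 higher, 303 lower, 61.3% higher). Without the mouse as a replicate block the count was 135 (112 and 23, 83.0% higher), with no filter on low counts 1840 (665 and 1175, 36.1%), with only these populations in the fit 1353 (810 and 543), against matched cells 340 (250 and 90, 73.5%), against matched cells with members at 3 or more UMIs of Dpp4 and Pi16 256 (185 and 71, 72.3%), with only members with Cilp 1346 (609 and 737, 45.2%) and with only members without 298 (187 and 111). Leaving out 1 mouse gave 387 to 542. The lower counts came without mouse 1 (447) and without mouse 2 (387).

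Against Icam1 Fabp4 cells 5266 genes were called. The count was 2601 (1434 and 1167) without the replicate block, 3485 with cells thinned after the gate, 3196 with cells thinned before it, 2540 (1333 and 1207) with only members with Cilp, and 3824 to 4211 with 1 mouse left out. By Cilp 474 genes were called (55.5% higher), 95 (78 and 17, 82.1%) without the replicate block, 185 (126 and 59, 68.1%) by DESeq2, 682 with no low-count filter (44.6% higher), and 245 to 577 with 1 mouse left out (280 without mouse 1, 245 without mouse 3). The blocked values are the ones reported, since populations of 1 animal are paired.

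The mean share of members was 3.19%, 2.49% at 5 or more Cilp plus Myoc UMIs, 3.85% at 2 or more, and 2.93% to 3.35% with 1 mouse left out. Among single genes against Icam1 Fabp4 cells, Bgn (0.26), Fst (0.16) and Efemp1 (-0.71) changed sign when only members with Cilp were taken, as Gdf10 did against Dpp4 Pi16 cells (0.06). Olfml2a (1.22), Col6a3 (-0.02) and Uchl1 (0.46, called in either direction) changed sign against matched cells, Sema3d for members without Cilp (-0.08), and for members at 3 or more UMIs of Dpp4 and Pi16 against matched cells Olfml2a (0.89), Uchl1 (0.57), Col6a3 (-0.08), Cdh19 (-0.20) and Sparcl1 (-0.89) did. The planned comparison of members with only Cilp and only Myoc was not run, for want of cells in mouse 2. Depth limits genes near 3 UMIs, which are 0.871, 1.35 and 0.961 CPM in members. The causes of these changes were not tested.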
